A study of Homo sapiens with 6 samples.

Results

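The gene described here is MAOA, which encodes monoamine oxidase A. It was followed through 1 probe, ILMN_1663640, among 48803 probes on each of 6 Illumina human HT-12 arrays. The probe was chosen by its intensities on these same arrays, where it was low in both Lin-28B clones, high in their control and of intermediate level in both Ago2 clones. Its levels and differences are therefore given as a description, with no p-value. The deposited table names no genes. The pairing of this probe with MAOA was taken from the working description of the series and was not checked against the probe's sequence.

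Monoamine oxidase A is a flavin-containing enzyme of the outer mitochondrial membrane. It removes the amine group of serotonin, noradrenaline and dopamine, with an aldehyde, ammonia and hydrogen peroxide as products. Its close relative monoamine oxidase B, encoded by the neighbouring gene MAOB, has an overlapping but distinct choice of substrates. MAOA is present in many tissues outside the nervous system, the lung among them.

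All 6 arrays measured the human cell line H1299, which derives from a non-small cell lung cancer and whose tissue is labelled lung adenocarcinoma. The groups were 2 clones stably transfected with Lin-28B, 1 control for Lin-28B, 2 clones stably transfected with Ago2 and 1 control for Ago2, all harvested during exponential growth. The LIN28B protein binds the precursors of let-7 microRNAs and keeps them from maturing, while AGO2, a member of the Argonaute family, holds mature microRNAs on their target messengers. The labels give no vector or promoter, do not say whether a control was a single clone, a pool or the parental line, and do not say whether the lines were grown or hybridized together. Each control had 1 array and so no spread of its own, and the clones of a pair are separate lines, not repeat cultures of 1 line. The LIN28B, AGO2 and MAOB probes and markers of lung or other cell types were not analysed here, since only the MAOA probe could be named. The labels of the clones and of the tissue were thus not checked against these genes.

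The window around the start of MAOA is shown because it places the measured gene in the genome, although the arrays do not measure it. RefSeq, on build GRCh38.p14, gives the 250 bases before and 50 bases after the start of MAOA at chrX:43656049-43656348 on the plus strand. Capitals mark each GC box, the motif GGGCGG on either strand, to which factors of the Sp and KLF families can bind.

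MAOA: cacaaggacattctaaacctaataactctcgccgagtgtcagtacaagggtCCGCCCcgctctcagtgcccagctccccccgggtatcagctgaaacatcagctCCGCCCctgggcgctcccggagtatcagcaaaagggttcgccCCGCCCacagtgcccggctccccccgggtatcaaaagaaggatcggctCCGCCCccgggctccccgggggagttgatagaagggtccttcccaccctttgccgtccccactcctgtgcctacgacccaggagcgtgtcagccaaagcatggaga

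The window held 4 GC boxes, all on the minus strand and so read as CCGCCC, whose first printed bases lay 199, 146, 104 and 56 bases before the start. At least 1 GC box occurred in 45.0% of 35116 RefSeq windows of the same length, and at least 4 in 9.06%. TATAAA was not found on either strand of the MAOA window and occurred in 11.5% of all windows. A run of 17 bases, gctccccccgggtatca, appeared at positions 73 and 163 from the left end of the printed window, and 5.08% of all windows held an exact repeat at least as long. MAOB starts on the minus strand with its window at chrX:43882401-43882700, so the 2 genes are read towards each other from separate promoters. The MAOB window held 7 GC boxes. These matches describe the letters of the windows and were not related to the levels on the arrays.

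In the Lin-28B clones the MAOA probe stood at the level of the median probe, whereas in their control it was among the brighter ones. Its deposited intensity was 66.6 in Lin-28B clone 1 and 61.7 in clone 2, against 939 in the control for Lin-28B. Both clones were below the control. The clones averaged 64.2 ± 3.5 (SD, n = 2), which was 14.6-fold lower than the control on the deposited intensities. At the array median an unknown share of the intensity may be background. The 14.6-fold ratio therefore compares deposited intensities and does not estimate the fold difference in MAOA RNA. The same holds for each later ratio that involves the Lin-28B clones or the control for Ago2. Set against the median of all probes on the same array, the level was 1.04 times the median in clone 1 and 0.987 times in clone 2, against 14.5 times in the control. The probe exceeded 55.7% of the probes on the array of clone 1 and 47.7% on that of clone 2, against 93.9% on the array of the control.

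In the Ago2 clones the probe was clearly above its array's median, and in their control it was not. It measured 305 in Ago2 clone 1 and 294 in clone 2, against 65.9 in the control for Ago2. The Ago2 clones were thus the higher group, the opposite order to the Lin-28B arrays. The clones averaged 299.6 ± 8.2 (SD, n = 2), 4.55-fold above the control. Relative to the array medians the levels were 4.95 and 4.63 times the median in Ago2 clones 1 and 2, against 0.982 times in the control for Ago2. The probe exceeded 85.4% and 85.0% of all probes in the 2 clones, against 46.5% in the control.

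**Figure D1:**
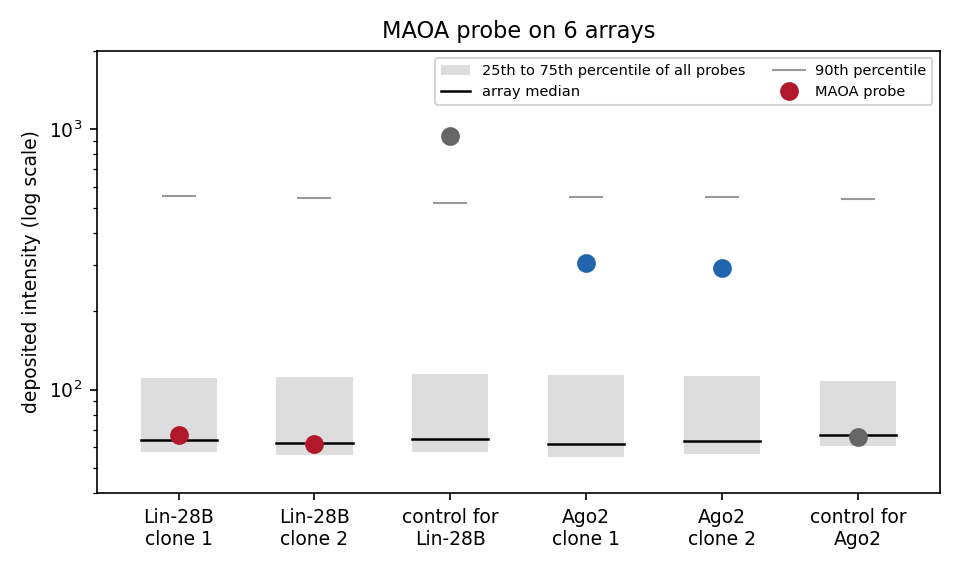
Deposited intensity of the MAOA probe on each of the 6 arrays (points, log scale), with the array median (black line), the 25th to 75th percentile of all 48803 probes (grey box) and the 90th percentile (grey dash). Both Lin-28B clones and the control for Ago2 lie within a few percent of their array medians, both Ago2 clones lie near 300, between the box and the 90th percentile, and the control for Lin-28B, at 939, lies above the 90th percentile.

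The 6 arrays thus gave 3 levels. The control for Lin-28B was highest at 939, and the Ago2 clones came next, at 305 and 294. The Lin-28B clones, at 66.6 and 61.7, and the control for Ago2, at 65.9, formed the lowest level. Within that lowest level the control for Ago2 lay between the 2 Lin-28B clones on the deposited intensities. Relative to the array medians it was just below both, at 0.982 times the median against 1.04 and 0.987 times. Either way it lay nearer to 1 of the clones than the 2 clones lay to each other. On the deposited intensities the control for Lin-28B was 3.08-fold above the brighter Ago2 clone, and the dimmer Ago2 clone was 4.41-fold above the brightest of the 3 low arrays.

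The intensities of the 2 clones of each transfection were close. For Lin-28B both lay at the array median, so their closeness does not show that they held like amounts of MAOA RNA. The brighter Lin-28B clone had 1.08 times the intensity of the dimmer one. Among 28670 probes within 1.2-fold of the MAOA level in these clones, the median of that ratio was 1.07 and its 95th percentile 1.23. The brighter Ago2 clone had 1.04 times the intensity of the dimmer one, against a median of 1.22 and a 95th percentile of 1.92 over 1543 probes of like brightness. At MAOA the Lin-28B pair thus differed by about the median at its brightness, and the Ago2 pair by less than the median. These values describe the spread between clones and say nothing of how control lines vary.

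For comparisons across the table, intensities were raised by 32, converted to log2 and quantile normalized. Differences are on this normalized log2(intensity + 32) scale, which understates changes of dim probes. Probes above the array median on at least 2 arrays were kept, 28035 in all, and the MAOA probe, above the median on 4 arrays, was among them. On this scale MAOA was at 6.62 and 6.57 in the Lin-28B clones, against 10.05 in their control, a difference of -3.45 and an 11.0-fold lower level. It was at 8.37 and 8.32 in the Ago2 clones, against 6.57 in their control, a difference of 1.78 and a 3.44-fold higher level. The SD between clones was 0.036 for Lin-28B and 0.034 for Ago2 on the same scale (n = 2 each). Neither control has a spread of its own, and the SD of the Lin-28B clones was measured at the array median, where background can narrow it.

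Among the 28035 kept probes only 1 had a lower Lin-28B difference than MAOA. For Ago2, MAOA was 45th from the highest. These ranks follow from values that led to the choice of the probe and are not evidence of their own. The 2-fold counts that follow are on the normalized scale. Both Lin-28B clones were at least 2-fold below their control for 376 probes (1.34% of those kept). Both Ago2 clones were at least 2-fold above their control for 179 (0.638%). MAOA belonged to both sets, as did 38 probes in all (0.136%). The mirrored pattern, both Lin-28B clones at least 2-fold higher and both Ago2 clones at least 2-fold lower than their controls, was seen for 24 probes (0.0856%).

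**Figure D2:**
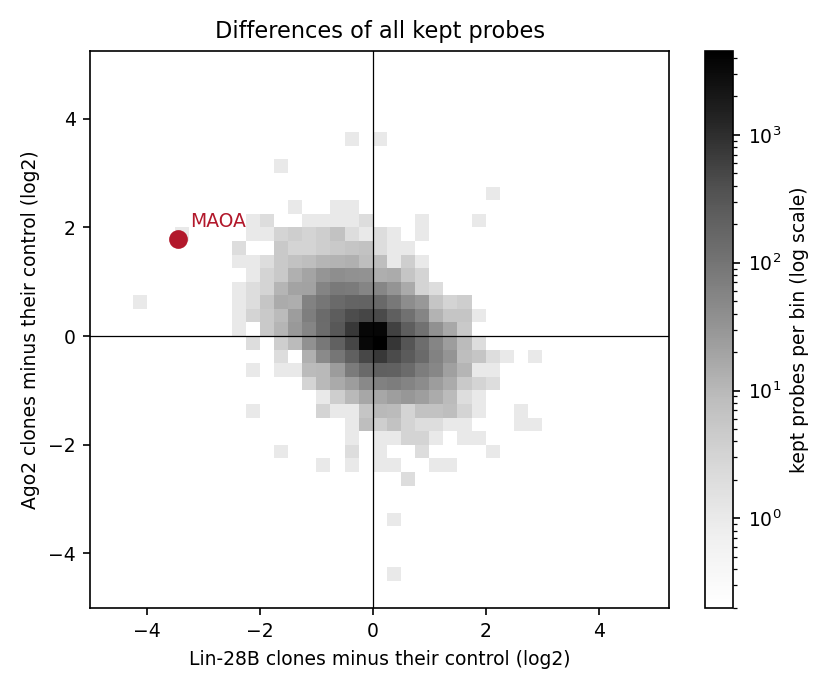
Difference between the Lin-28B clones and their control (x axis) and between the Ago2 clones and their control (y axis) on the normalized log2(intensity + 32) scale, for all 28035 kept probes in bins of 0.25, shaded by the number of probes per bin on a log scale. MAOA, the red point at -3.45 and 1.78, lies at the upper left edge, away from the mass of probes around 0.

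Compared without the controls, MAOA was lower in the Lin-28B clones than in the Ago2 clones. This order is part of what the probe was chosen for and is not evidence of its own. The Lin-28B clones, at 66.6 and 61.7, lay below the Ago2 clones, at 305 and 294. On the deposited intensities the Lin-28B clones were 4.67-fold lower, and on the normalized scale the difference was -1.75. This is the only comparison with 2 arrays on each side. The 2 pairs are separate lines, however, and their control lines differed by more at MAOA, 3.49 on the same scale. On the normalized scale both Lin-28B clones were at least 2-fold below both Ago2 clones for 5 kept probes (0.0178%), MAOA among them. The gap between the nearest clones was 1.70 for MAOA. It was wider, 1.80, for ILMN_1792455, a probe of no gene name here that was picked out after its values were seen, and it ranged from 1.05 to 1.41 for the other 3 probes.

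The 2 control lines also differed at MAOA. The control for Lin-28B measured 939 against 65.9 in the control for Ago2, a ratio of 14.3 on the deposited intensities and a difference of 3.49 on the normalized scale. Only 3 kept probes had a larger difference in that direction. At least 2-fold higher values on the normalized scale in the control for Lin-28B were seen for 1265 probes (4.51%). Because the controls differed this much, the direction of each clone-minus-control difference rested on which control was used. Against the control for Ago2, the Lin-28B clones differed by 0.031 on the normalized scale, which is within the SD between them. Against the control for Lin-28B, the Ago2 clones differed by -1.71, lower and not higher. With 1 array per control, the difference between the control lines and any effect of the transfections on MAOA cannot be told apart.

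The array of the control for Lin-28B, on which MAOA was brightest, had the lowest minimum (26.1, against 34.8 to 43.4 on the others) and the highest maximum (45656, against 30362 to 37194). Its median of 64.8 lay within the range of the other arrays, 61.7 to 67.04. The part of that array in the MAOA level was not tested.

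In limma, with Benjamini-Hochberg adjustment over the kept probes and a threshold of 0.05, the whole table gave 463 calls for Lin-28B against its control (1.65%) and 1674 between the controls (5.97%). The difference between both clone-minus-control effects gave 1067 (3.81%). Ago2 against its control gave 0 (0%, with 4239 probes at an unadjusted p under 0.05), and the Lin-28B clones against the Ago2 clones 0 (0%, with 1952). These shares are the background of the comparisons. The 463, 1067 and 1674 calls each became 0 without Lin-28B clone 1 or without clone 2. They became 2300, 2403 and 3923 without Ago2 clone 1, and 2327, 2861 and 3984 without Ago2 clone 2.

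**Figure D3:**
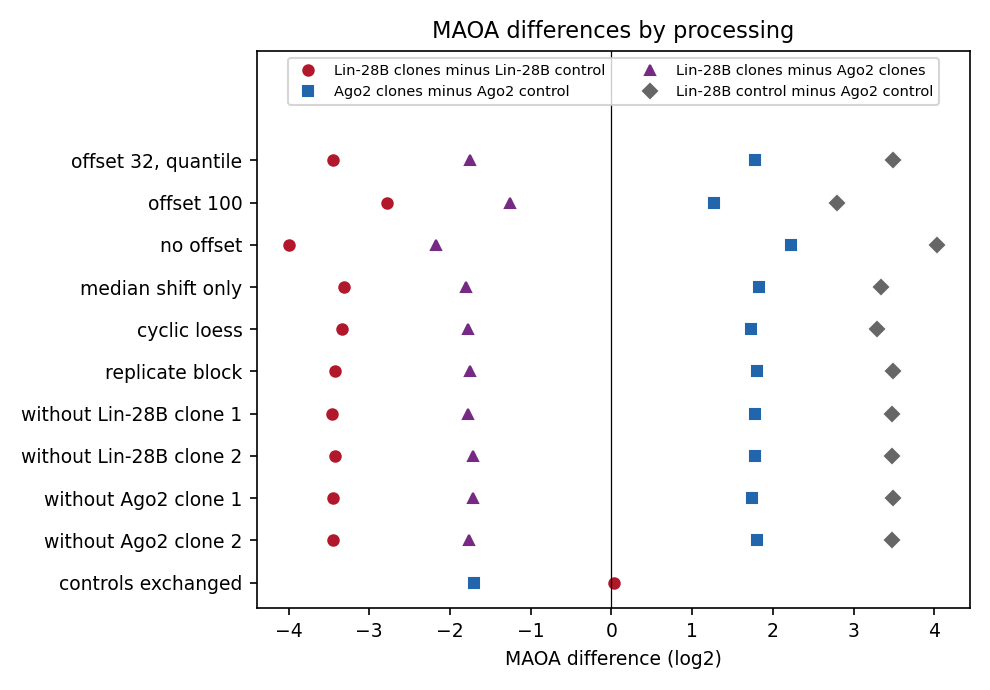
MAOA difference in log2 units (x axis) for 4 comparisons under each way of processing the arrays (rows), with the offset of 32 and quantile normalization at the top. Every comparison keeps its side of 0 in all rows except the last, where each transfection is set against the other's control and the Lin-28B value becomes 0.031 and the Ago2 value -1.71. Comparisons without a clone and a control have no value there.

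The order of the 3 levels was shared by other probes, but not its size. In 897 of the kept probes (3.20%) the control for Lin-28B was highest, both Ago2 clones were next, and both Lin-28B clones and the control for Ago2 were lowest. In 1420 (5.07%) the order was the exact mirror. With gaps of at least 2-fold at both steps on the deposited intensities, MAOA was the only probe in its order, and 0 probes had the mirrored one. Of 6442 kept probes that were at most 1.1 times the array median in both Lin-28B clones and the control for Ago2, MAOA was the only one at 10 or more times the median in the control for Lin-28B. It was also the only one of these at 4 or more times the median in both Ago2 clones. These limits were set after the values of MAOA were known, so the counts describe where it stands and test nothing.

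Likeness to MAOA was measured as Pearson's r over the 6 normalized log2 values. The 6 points share arrays with the choice of the probe, and r over so few points is a description. Of 298 other kept probes with a range of at least 2 on the log2 scale, 6 had an r of 0.95 or more and 6 had an r of -0.95 or less. Over all 28034 other kept probes the counts were 156 and 238. The probe most like MAOA was ILMN_1792409, with an r of 0.98. It measured 80.0 and 109 in the Lin-28B clones, against 426 in their control, and 202 and 180 in the Ago2 clones, against 101 in their control. The next was ILMN_1776602, with an r of 0.97. Its intensities were 86.3 and 142 in the Lin-28B clones, against 570 in their control, and 223 and 269 in the Ago2 clones, against 87.4 in their control. Both probes thus had the order of MAOA with a narrower range, 2.07 and 2.41 on the log2 scale. The most opposite probe was ILMN_2169966, with an r of -0.98, at 1668 and 1885 in the Lin-28B clones, against 335 in their control, and at 862 and 1022 in the Ago2 clones, against 1694 in their control. ILMN_1735461 followed, with an r of -0.97. Its intensities were 3798 and 3882 in the Lin-28B clones, against 1027 in their control, and 1972 and 2621 in the Ago2 clones, against 4936 in their control. None of these 4 probes carries a gene name here.

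**Figure D4:**
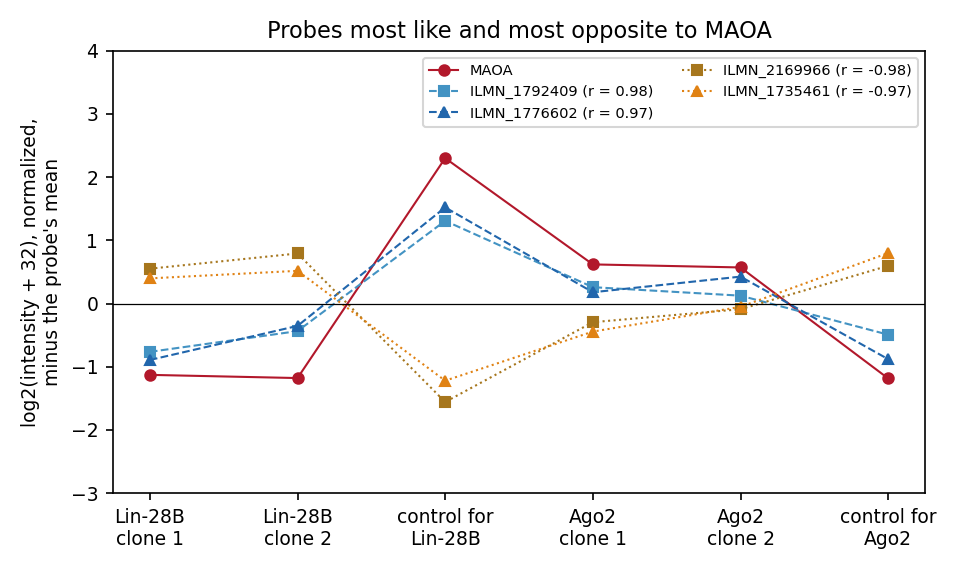
Normalized log2(intensity + 32) minus each probe's own mean, on each of the 6 arrays, for MAOA, the 2 probes most like it (dashed) and the 2 most opposite (dotted), with r in the legend. MAOA and its like probes peak in the control for Lin-28B and are lowest in the Lin-28B clones and the control for Ago2, and the opposite probes run the other way.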

How the data were processed

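Total RNA from 6 H1299 lines was extracted with Trizol, labelled with biotin through the Ambion MessageAmp kit and hybridized to HT-12 arrays, per the labels' protocols. The deposited table holds linear intensities of the probes. The sources used here name no scanner software, background handling, normalization or detection calls. No intensity was below 26.1, and array medians lay between 61.7 and 67.04, so a background level may still be present. Its size was not measured. Precision is limited by the number of arrays.

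Groups came from the sample titles. Intensities were floored at 1, raised by 32, converted to log2 and quantile normalized. Probes above the array median on at least 2 of 6 arrays were kept (28035, 57.4%). All 6 arrays entered 1 model with 4 groups in limma 3.58.1 (R 4.3.3), with empirical Bayes moderation, 2 residual degrees of freedom from the clone pairs and Benjamini-Hochberg adjustment over the kept probes. The single controls were assumed to vary like the clones. The p-values rest on the spread within the clone pairs alone. Clones of a pair are separate lines with 1 array each, so differences between lines and technical spread cannot be told apart. The fit was also run on simulated data that gave all 6 arrays the same spread at a probe. That run could not check the assumption about the controls.

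The gene, the lists and the comparisons were chosen with earlier results of these data known. The rule for naming genes was MAOA, LIN28B, AGO2, MAOB, the neighbours of MAOA, the widest-ranging members of 16 gene lists, and the probes most like and most opposite to MAOA. Without gene names the rule was applied only to MAOA and to the 2 most like and 2 most opposite probes, and the lists, the neighbours and the olfactory receptor background were not analysed here. Window sequences are from RefSeq (GRCh38.p14). The correlation of the clone 1 minus clone 2 differences of both transfections was -0.20 over kept probes. This value alone cannot tell whether arrays of equal clone number were handled together, which the labels do not say.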

Additional observations from a re-analysis of the deposited data

Results flagged for a closer look

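The 2 transfections had opposite MAOA differences, each against its own control. Both Lin-28B clones were below the control for Lin-28B and both Ago2 clones were above the control for Ago2. The Lin-28B effect minus the Ago2 effect was -5.23 on the normalized log2(intensity + 32) scale. The difference was not tested, because MAOA was chosen for these values. Of the -5.23, -1.75 was the difference between the Lin-28B and the Ago2 clones, and the rest was the difference of 3.49 between the 2 control arrays, taken with its sign turned.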

How the results depend on the processing

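MAOA values are given in the order Lin-28B clones minus their control, Ago2 clones minus their control, the first minus the second, Lin-28B clones minus Ago2 clones, and control for Lin-28B minus control for Ago2, on the log2 scale, and were -3.45, 1.78, -5.23, -1.75 and 3.49 as reported. An offset of 100 gave -2.78, 1.27, -4.05, -1.25 and 2.79, and adding none gave -3.99, 2.23, -6.22, -2.18 and 4.04. After a shift to equal medians alone they were -3.31, 1.83, -5.14, -1.80 and 3.34, and with cyclic loess -3.34, 1.73, -5.07, -1.78 and 3.29. All 5 kept their direction in these settings. Leaving out 1 clone at a time gave -3.47 to -3.42, 1.74 to 1.80, -5.25 to -5.19, -1.77 to -1.71 and 3.47 to 3.48. With the controls exchanged, the first 3 became 0.031, -1.71 and 1.74, which reversed their sign and follows from the gap between the control arrays. With the clone number as a replicate block the first 2 became -3.43 and 1.81 and the other 3 kept their values. The size of the MAOA differences thus depended on the offset more than on the normalization, since 3 arrays lay near their medians.

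The calls over the whole table changed more. By design, the replicate block and leaving out a clone alter the spread and the residual degrees of freedom on which the p-values rest. How much of each change in calls came from this was not tested. The 463 calls for Lin-28B became 0 with an offset of 100, with the replicate block, with the controls exchanged and with probes above the median on all 6 arrays, 1 with cyclic loess and 813 with no offset. The 1067 calls for the difference of effects became 0 with an offset of 100, with the replicate block and with the controls exchanged. The 1674 calls between the controls became 1003 with an offset of 100 and 0 with the replicate block. Leaving out 1 clone at a time gave 0 to 2327 calls for Lin-28B, 0 to 2861 for the difference of effects and 0 to 3984 between the controls. Ago2 against its control and the direct comparison of clones gave 0 calls in limma in all settings, with 4239 and 1952 probes at an unadjusted p under 0.05 as reported. A block with the Ago2 clone numbers crossed, chosen after seeing the data, gave 558, 0, 1743, 0 and 2500 calls in the order above. The 6 probes with an r of 0.95 or more with MAOA numbered 2 after adding 100 and 10 after adding nothing. With background of unknown size and no detection calls, an intensity near the array median gives no estimate of how little MAOA RNA was present.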
